A study of Homo sapiens with 6 samples.

Results

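Aminoacyl-tRNA synthetases are the enzymes that join each amino acid to its transfer RNA. The genes described here are the 36 nuclear genes that encode them in human cells, 20 for the cytosolic enzymes and 16 for the mitochondrial ones. Each was looked up by its name in a deposited table of 57281 genes, with no threshold on its level or change. Of the 36, 35 were found by their name. The mitochondrial methionyl enzyme gene, MARS2, was found only by its identifier (ENSG00000247626.3), because its name in the table had been turned into a calendar date. It was listed at 0 in all 6 libraries and could not be tested. SARS2, the mitochondrial seryl enzyme gene, has 2 identifiers in the table, and the second of them (ENSG00000269547.1) was also listed at 0 in every library.

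HaCaT, the cell line sequenced, is a human keratinocyte line that became immortal spontaneously. Both groups were kept for 24 h with 10 ng/ml of TGF-β1 (transforming growth factor β1), a setting meant to resemble the repair of an epithelium. The control group had TGF-β1 without silymarin (TGF, n = 3 libraries), and the other group had TGF-β1 together with silymarin at 31.25 µg/ml (TGF.SM31, n = 3). Silymarin is a milk thistle seed extract whose main constituents are flavonolignans. Cells without TGF-β1 were not analysed here, so each difference below is between TGF-β1-treated cultures of 1 line with and without silymarin. Values are normalized read counts, that is, reads divided by a size factor of the library.

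Protein synthesis in the cytosol and in mitochondria draws on separate sets of synthetases, nearly all of which are encoded by separate nuclear genes. Glycine and lysine are exceptions, since GARS and KARS each make both forms. The enzymes fall into structural classes, I and II, that differ in the fold of the catalytic domain. In the cytosol, several synthetases are held in a multisynthetase complex with scaffold proteins, of which AIMP1 and AIMP2 are examples. Many cytosolic synthetase genes are known targets of ATF4, the transcription factor of the integrated stress response, which is made when eIF2α is phosphorylated, for instance by GCN2 when uncharged transfer RNA accumulates.

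The whole-series values that bear on these genes are few. Read totals were 20240542 to 30279391 in the 5 libraries whose recovered reads were accepted, and 16967 to 17246 genes per library had at least 10 normalized counts. Silymarin replicate 2 had the lowest total of those 5, and its deviation from the other silymarin replicates ran with the GC content of transcripts (Spearman's rho -0.56 across 16828 genes of the same library, given as a description). Of the keratinocyte markers, 9 of 10 were called lower with silymarin (adjusted p under 0.05 in limma), beside 18.2% of all genes tested. CDH1 (log2 fold change -0.14, limma adjusted p = 0.0429) and SFN (-0.22, 0.0426) were near that threshold. The summed level of the markers was 418600 to 426400 normalized counts in the TGF libraries and 239200 to 267000 in the silymarin libraries. TP63, which marks the basal keratinocyte lineage, was at 17760 to 20970 in all 6. The 7 fibroblast markers summed to 3334 to 3510 against 1716 to 2055, nearly all from COL1A1, with 6 of 7 under 10 in every library and DCN at 0. The 5 melanocyte markers summed to 218.4 to 231.6 against 292.5 to 364.3, with TYR at 0. Of these, MITF rose (mean 145.7 to 247.2), while PMEL went from 75.8 to 69.38 and did not pass. The 3 endothelial markers found summed to 119.6 to 134.4 against 204.6 to 258.8, and the 4 leukocyte markers to 16.18 to 21.22 against 25.16 to 38.08. CDH5 rose (mean 34.14 to 157.2), while VWF went from 93.0 to 71.33 without passing, and KDR was at 0 to 1.011. Most of the leukocyte sum was CD14 (mean 13.09 to 22.75). These sums thus rest largely on single genes. The part of these shifts in the results below was not tested. In bulk RNA, fewer cells of a type and less RNA per cell cannot be told apart.

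Transcripts of 13 of the 20 cytosolic synthetases were higher with silymarin, and those of 0 of the 15 mitochondrial synthetases tested were. All 35 genes found by name passed the filter on low values (10 or more normalized counts in 3 or more libraries). The other cytosolic genes were 1 that fell and 6 that did not pass an adjusted p of 0.05 (limma, with Benjamini-Hochberg adjustment over 17296 genes). Of the mitochondrial genes, 1 fell and 14 did not pass. Over all genes tested, 34.2% were called, 16.0% as higher and 18.2% as lower, so 70.0% of the cytosolic genes and 6.67% of the mitochondrial genes were called against that background. The median log2 fold change was 0.33 for the cytosolic genes (range -0.13 to 0.78) and -0.11 for the mitochondrial ones (-0.24 to 0.22), beside 0.0044 for all genes. These are changes on the log2(value + 1) scale, silymarin against TGF-β1 alone. The list as a whole was not tested, and neither was the difference between the compartments.

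**Figure D1:**
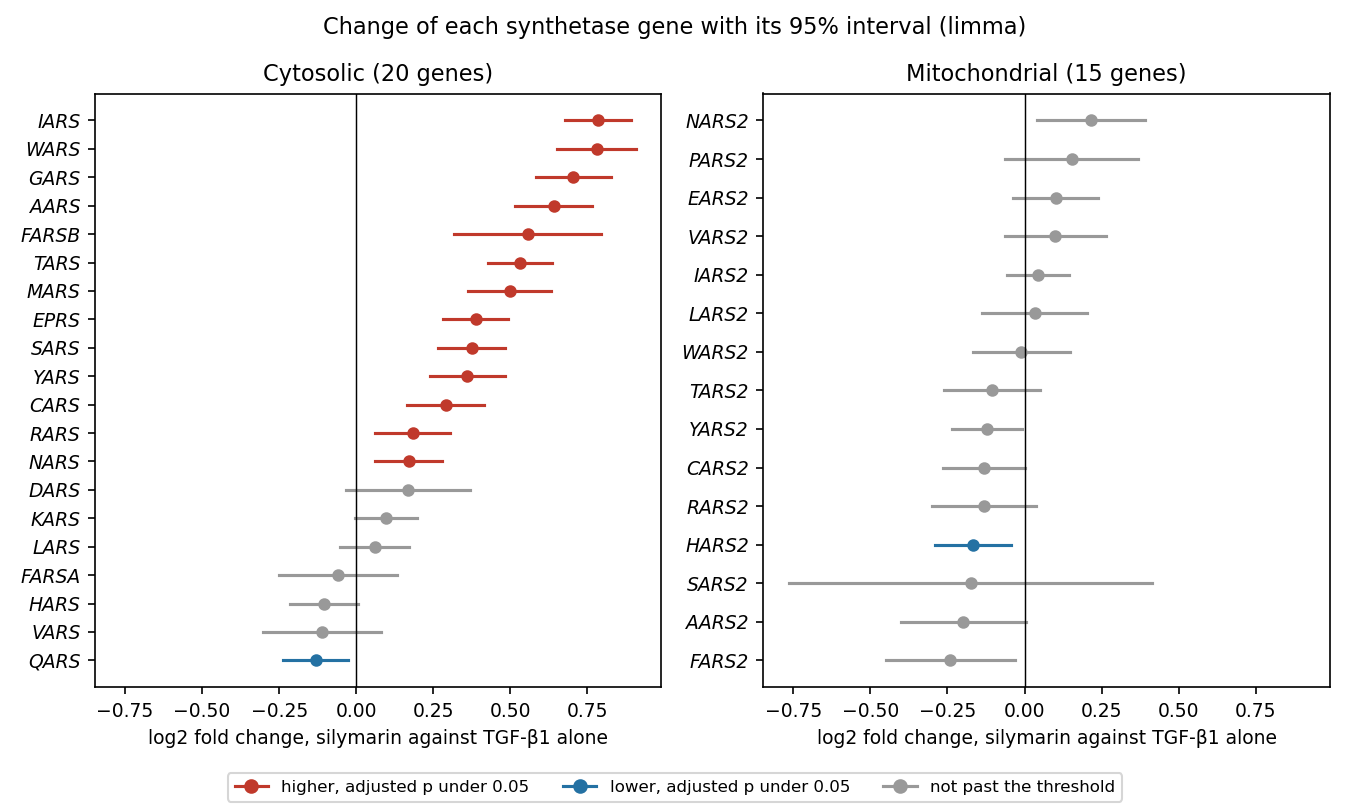
Log2 fold change of each synthetase gene (horizontal axis, silymarin plus TGF-β1 against TGF-β1 alone, log2(value + 1) scale) with its 95% interval from limma, n = 3 libraries per group, for 20 cytosolic genes (left) and 15 mitochondrial genes (right). Cytosolic changes run from -0.13 to 0.78 and mitochondrial changes from -0.24 to 0.22.

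The same picture was seen library by library. Taken against the mean of the TGF libraries, the median cytosolic gene was at log2 values of 0.02, 0.003 and -0.02 in TGF replicates 1 to 3, and at 0.33, 0.30 and 0.36 in silymarin replicates 1 to 3. The summed level of the 20 cytosolic genes was 45660, 44960 and 44350 normalized counts without silymarin and 56250, 55970 and 57530 with it. Each silymarin library was thus above each control library, and 16 or 17 of the 20 genes in each lay above the control mean. For the 15 mitochondrial genes the sums were 11830, 11840 and 11890 without silymarin and 11930, 11550 and 11750 with it, and these ranges overlap. Counting single genes, the 3 silymarin values all lay above the 3 control values for 14 cytosolic genes and all below for 2. For mitochondrial genes the corresponding numbers were 1 and 3, with 11 overlapping. Over all genes tested, 47.1% had groups that did not overlap in either direction.

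**Figure D2:**
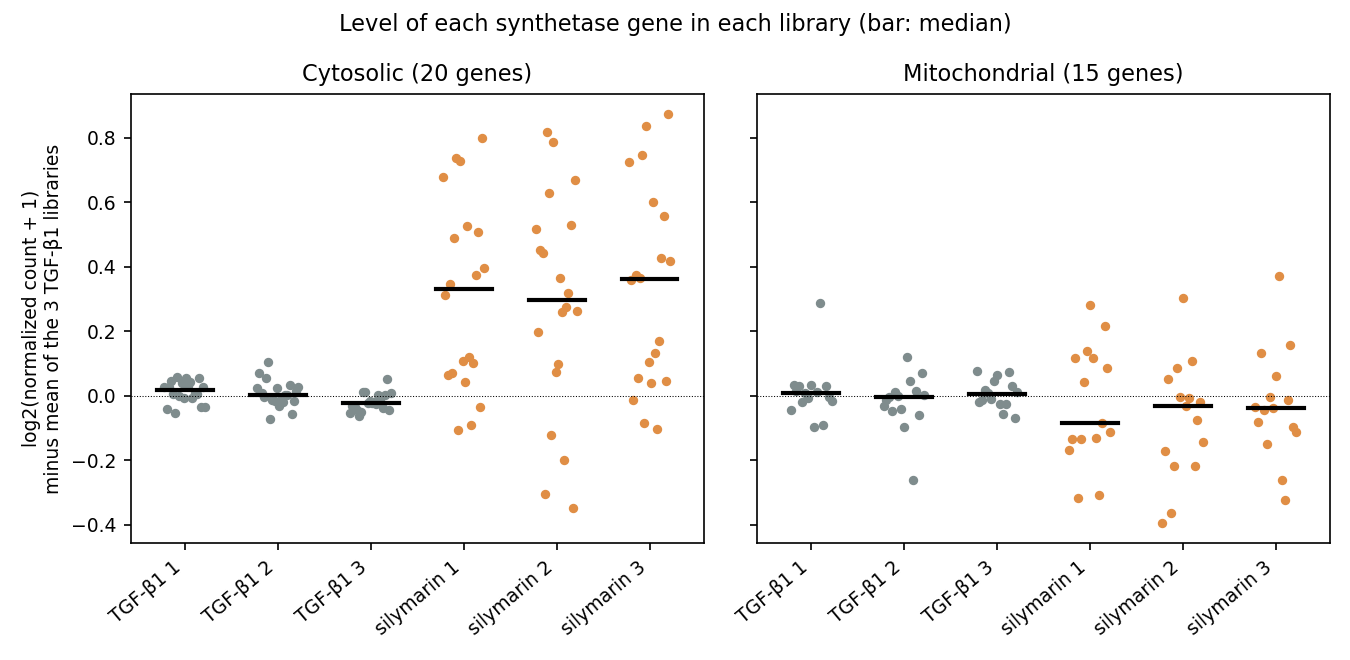
Log2 level of each synthetase gene in each of the 6 libraries relative to the mean of the 3 TGF libraries, cytosolic and mitochondrial genes shown separately. Most cytosolic genes are above 0 in all 3 silymarin libraries, with library medians of 0.33, 0.30 and 0.36.

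The largest rises were those of the isoleucyl, tryptophanyl, glycyl and alanyl enzymes. IARS, which charges isoleucine transfer RNA in the multisynthetase complex, had 2272, 2188 and 2177 normalized counts without silymarin and 3668, 3818 and 3952 with it. Its mean went from 2213 ± 51.7 (SD, n = 3) to 3812 ± 142 (SD, n = 3), a rise of 72.3% and a log2 fold change of 0.78 (SE 0.05, 95% interval 0.68 to 0.89, limma adjusted p = 6.87e-08). The groups were far apart relative to the spread between replicates. IARS lies on chromosome 9, 92210207 to 92293756 on the minus strand (GENCODE 29, GRCh38). WARS, the cytosolic tryptophanyl enzyme gene on chromosome 14 (100333788 to 100376805, minus strand), had 1730, 1714 and 1646 counts without silymarin and 2952, 2697 and 3110 with it. Its log2 fold change was 0.78 (SE 0.06, limma adjusted p = 3.44e-07). WARS is also known as an interferon-inducible gene. Of its exon bases, 10.6% are shared with genes on the opposite strand (AL157871.4 and WDR25).

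GARS, on chromosome 7 (30594681 to 30634033, plus strand), makes glycyl-tRNA synthetase for both compartments. It had 1548, 1416 and 1500 normalized counts without silymarin and 2480, 2298 and 2495 with it, so that the lowest silymarin value exceeded the highest control value. Its log2 fold change was 0.70 (SE 0.06, limma adjusted p = 6.32e-07). KARS, the lysyl gene that likewise serves both compartments, had 2840, 2896 and 2816 counts without silymarin and 3073, 3001 and 3065 with it. The KARS groups did not overlap, but the log2 difference was 0.10 (95% interval -0.004 to 0.20, limma adjusted p = 0.131), which did not pass. Without silymarin replicate 2 the KARS difference was 0.11 and did pass (limma adjusted p = 0.021). The genes that supply both compartments thus differed in size of change, and that difference was not tested.

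AARS, the cytosolic alanyl gene on chromosome 16 (70252295 to 70289543, minus strand), had 3274, 3270 and 3100 normalized counts without silymarin and 5145, 4603 and 5314 with it. Its log2 fold change was 0.64 (SE 0.06, limma adjusted p = 1.86e-06). TARS, the threonyl gene on chromosome 5 (33440696 to 33469539, plus strand), had 3575, 3308 and 3443 counts without silymarin and 4893, 4965 and 5064 with it. TARS values were tight in both groups, with means of 3442 ± 134 and 4974 ± 85.8 (SD, n = 3 each) and a log2 fold change of 0.53 (SE 0.05, limma adjusted p = 1.92e-06). FARSB encodes the β subunit of phenylalanyl-tRNA synthetase, an enzyme built from α and β subunits. It had the lowest level per kilobase of exon of the cytosolic genes (70.1 normalized counts per kb in the TGF mean) and was at 227.2, 253.7 and 227.6 counts without silymarin and at 331.5, 416.7 and 303.8 with it. FARSB rose by a log2 fold change of 0.56 (SE 0.11, limma adjusted p = 0.00154), and silymarin replicate 2 was the highest of its libraries. Without that library the change was 0.43 (limma adjusted p = 5.53e-04).

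FARSA, the gene of the α subunit, did not follow FARSB. It had 905.2, 937.9 and 863.7 normalized counts without silymarin and 946.4, 730.2 and 937.3 with it, a log2 difference of -0.06 (limma adjusted p = 0.651). Here silymarin replicate 2 was the lowest library. The ratio of FARSB to FARSA counts was 0.251, 0.271 and 0.263 in the TGF libraries and 0.35, 0.571 and 0.324 in the silymarin libraries, without overlap. FARSA transcripts have a GC content of 60.3% and FARSB transcripts 41.6%, and the part of base composition in the high ratio of replicate 2 was not tested.

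Further rises were smaller. MARS, the methionyl gene, had 1695, 1646 and 1639 normalized counts without silymarin and 2393, 2137 and 2519 with it (log2 fold change 0.50, limma adjusted p = 3.57e-05). Of its exon bases, 12.4% are shared with ARHGAP9 and DDIT3 on the opposite strand, and DDIT3 itself differed by 0.12 (limma adjusted p = 0.24). EPRS, whose product carries both the glutamyl and the prolyl activity, had 3349, 3236 and 3149 counts without silymarin and 4124, 4407 and 4209 with it (0.39, limma adjusted p = 4.11e-05). The seryl gene SARS (log2 fold change 0.37), the tyrosyl gene YARS (0.36) and the cysteinyl gene CARS (0.29) also rose, with groups that did not overlap and limma adjusted p of 6.27e-05, 2.63e-04 and 0.00168. The arginyl gene RARS went from 1623 ± 11.7 to 1845 ± 113 (SD, n = 3 each), a log2 fold change of 0.18 (limma adjusted p = 0.023). RARS no longer passed when any of the control libraries was left out (limma adjusted p 0.0696 to 0.0896).

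NARS, the asparaginyl gene, was the most abundant synthetase transcript per kilobase of exon, at 1660 normalized counts per kb in the TGF mean. It had 6985, 6699 and 6670 normalized counts without silymarin and 7375, 8114 and 7432 with it. Its log2 fold change of 0.17 (SE 0.05, limma adjusted p = 0.0184) was the smallest among the cytosolic genes that rose. The call was lost without TGF replicate 2 (limma adjusted p = 0.0823) and without TGF replicate 3 (0.0889).

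Of the cytosolic genes, 6 did not pass the threshold. They were DARS, KARS, LARS, FARSA, HARS and VARS. DARS, the aspartyl gene, had 1650, 1629 and 1579 normalized counts without silymarin and 1694, 2215 and 1604 with it, so that the single high value came from silymarin replicate 2. Its log2 difference was 0.17 (95% interval -0.03 to 0.37, limma adjusted p = 0.189), and 0.03 without that library (limma adjusted p = 0.671). Without silymarin replicate 3 the difference was 0.26 and passed (limma adjusted p = 0.0384). LARS, the leucyl gene, had overlapping groups and a difference of 0.06 (limma adjusted p = 0.40). VARS, the valyl gene and the most GC-rich of the members at 62.6%, had 729.3, 738.5 and 774.7 counts without silymarin and 729.8, 587.5 and 772 with it (-0.11, limma adjusted p = 0.37). Silymarin replicate 2 was again the library apart, in this case low.

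QARS, the glutaminyl gene, was the cytosolic member that fell. It had 3936, 3958 and 3959 normalized counts without silymarin and 3707, 3438 and 3679 with it. The mean fell by 8.68%, from 3951 ± 13.4 to 3608 ± 148 (SD, n = 3 each). The log2 fold change was -0.13 (SE 0.05, limma adjusted p = 0.04997), at the edge of the threshold. Of the 18 alternative settings tried, 14 ended this call, although the groups did not overlap. Over the fits that left out 1 library each, its adjusted p in limma ran from 0.0244 to 0.15.

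The cytosolic rises were spread over both structural classes and were found inside and outside the multisynthetase complex. Of the 8 genes for enzymes of the complex, 4 rose (IARS, MARS, EPRS and RARS), QARS fell and 3 did not pass, with a median log2 fold change of 0.18. Of the 12 genes for enzymes outside it, 9 rose and 3 did not pass, with a median of 0.37. By class, 6 of 9 class I genes rose and QARS fell (median 0.29), and 6 of 10 class II genes rose (median 0.27). EPRS, which holds a domain of each class, was counted in neither. Over all genes tested, 16.0% were called higher and 18.2% lower, with a median of 0.0044. None of these differences between subgroups was tested.

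The mitochondrial genes were lower in level, with a median of 149 normalized counts per kb of exon in the TGF mean (range 5.17 to 885) against 364 (70.1 to 1660) for the cytosolic ones. IARS2, the mitochondrial isoleucyl gene, was the most abundant of them. It had 3713, 3683 and 3666 normalized counts without silymarin and 3801, 3917 and 3679 with it, a log2 difference of 0.04 (95% interval -0.06 to 0.14, limma adjusted p = 0.523). The interval leaves out a change as large as that of its cytosolic counterpart IARS, whose own interval began at 0.68. SARS2 was at 12.98 to 20.33 counts in all 6 libraries, too few for a narrow estimate (-0.17, 95% interval -0.76 to 0.42). Of SARS2 exon bases, 46.2% are shared with AC011455.2 on the same strand, so its counts are uncertain.

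HARS2, the mitochondrial histidyl gene, was the only mitochondrial gene of the 15 tested to pass the threshold. It had 1017, 1039 and 1036 normalized counts without silymarin and 938.8, 887 and 929.5 with it. Every silymarin value was below every control value, and the mean went from 1031 ± 12.2 to 918.4 ± 27.6 (SD, n = 3 each). The log2 fold change was -0.17 (SE 0.06, limma adjusted p = 0.0366), and 11 of 18 alternative settings ended the call. HARS, the cytosolic histidyl gene, had 1469, 1458 and 1483 counts without silymarin and 1365, 1352 and 1386 with it, also without overlap (-0.10, 95% interval -0.21 to 0.007, limma adjusted p = 0.138). These genes stand head to head on chromosome 5. Their RefSeq starts (GRCh38.p14) are at 140691370 on the minus strand for HARS and at 140691455 on the plus strand for HARS2, 85 bases apart. Of HARS2 exon bases, 11.7% are shared with HARS on the opposite strand. The libraries were made with a stranded kit, but whether reads were counted by strand is not given in the sources used here. If they were not, reads of the shared bases cannot be told apart.

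The remaining mitochondrial genes lay on both sides of 0. FARS2, the phenylalanyl gene, had 281.1, 266.4 and 279.1 normalized counts without silymarin and 221, 214.1 and 267.4 with it (log2 difference -0.24, limma adjusted p = 0.074). YARS2 (tyrosine) and CARS2 (cysteine) had lower silymarin values without overlap, at -0.12 (limma adjusted p = 0.0938) and -0.13 (0.123). EARS2, the glutamyl gene, had higher values without overlap, 537.5, 531 and 527.9 against 577.7, 551.8 and 583.3 (0.10, limma adjusted p = 0.253). NARS2, the asparaginyl gene, had the largest positive difference of the mitochondrial genes, with 480, 437.7 and 489.5 counts against 570.1, 578.6 and 489 (0.22, limma adjusted p = 0.0572). Silymarin replicate 3 was at the control level for NARS2, and without it the difference was 0.29 (limma adjusted p = 0.013). In the same fit FARS2 was at -0.34 (0.0141) and AARS2, the alanyl gene, at -0.28 (0.0373), so that both were then called lower.

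Without silymarin replicate 2, 14 cytosolic genes were called higher and 1 lower, and 5 mitochondrial genes passed rather than 1. Of all genes tested in that fit, 42.1% were called, and the 5 of 15 mitochondrial genes (33.3%) were below that share. RARS2 (arginine), YARS2 and HARS2 were then called lower, and PARS2 (proline) and VARS2 (valine) higher. Over the 35 tested members, the deviation of silymarin replicate 2 from the other silymarin replicates ranged from -0.37 to 0.43 on the log2 scale. It ran with transcript GC content, which ranged from 41.2% to 62.6% (Spearman's rho -0.772, Pearson's r -0.635, n = 35 genes of the same library, a description only). The 11 larger cytosolic rises, from IARS to CARS, passed with and without this library.

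**Figure D3:**
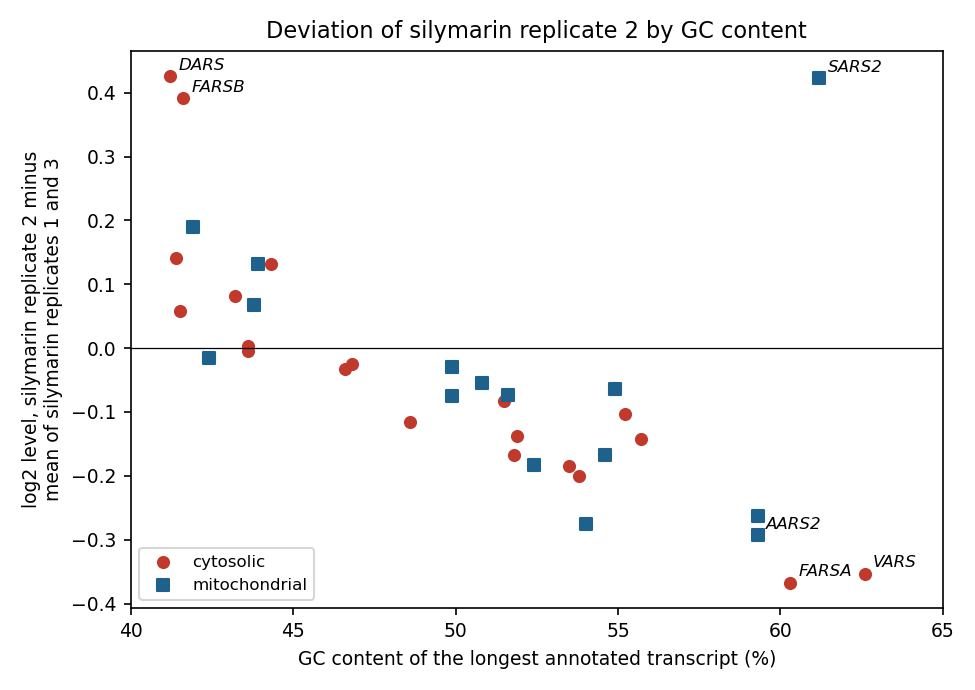
Deviation of silymarin replicate 2 from the other silymarin replicates (vertical axis, log2) against the GC content of each gene's longest transcript (horizontal axis, percent) for 35 synthetase genes. AT-rich members such as DARS and FARSB lie above 0 and GC-rich members such as VARS and FARSA below it, with SARS2 (12.98 to 20.33 counts) as an exception.

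Cytosolic and mitochondrial enzymes for the same amino acid can be compared within each library, which gave 16 pairs of genes. EPRS enters with both EARS2 and PARS2, and FARS2 with both FARSA and FARSB, so the pairs are not independent. In 14 of the 16 the signed log2 fold change was higher for the cytosolic gene, with a median signed difference of 0.37. In FARSA with FARS2 and HARS with HARS2, which are among the 14, both changes were negative and the mitochondrial one was the larger in size. In 12 the cytosolic gene rose and its mitochondrial partner did not pass in that direction, which is not a test of the difference between partners. The 12 include both EPRS pairs. They also include NARS with NARS2, where the mitochondrial change was the larger (0.22 against 0.17) and the ratios overlapped. The ratio of AARS to AARS2 counts was 8.95, 8.87 and 7.80 in the TGF libraries and 15.3, 16.1 and 14.5 in the silymarin libraries. The ratio of IARS to IARS2 was 0.612, 0.594 and 0.594 against 0.965, 0.975 and 1.07, and that of WARS to WARS2 was 3.03, 2.85 and 3.02 against 4.85, 4.78 and 5.81. All 3 of these ratios were higher in every silymarin library than in any control library. Ratios of this kind were higher without overlap in 10 pairs, lower without overlap in 1 and overlapping in 5. No such share was computed for ratios of other gene pairs. Over all single genes tested, 47.1% had groups that did not overlap. The pair with the lower ratio was VARS to VARS2, at 0.786, 0.847 and 0.835 against 0.691, 0.681 and 0.761. VARS2 shares 22% of its exon bases with GTF2H4 on the same strand. The HARS to HARS2 ratio was 1.40 to 1.45 without silymarin and 1.46 to 1.52 with it, so these ranges lay next to each other.

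**Figure D4:**
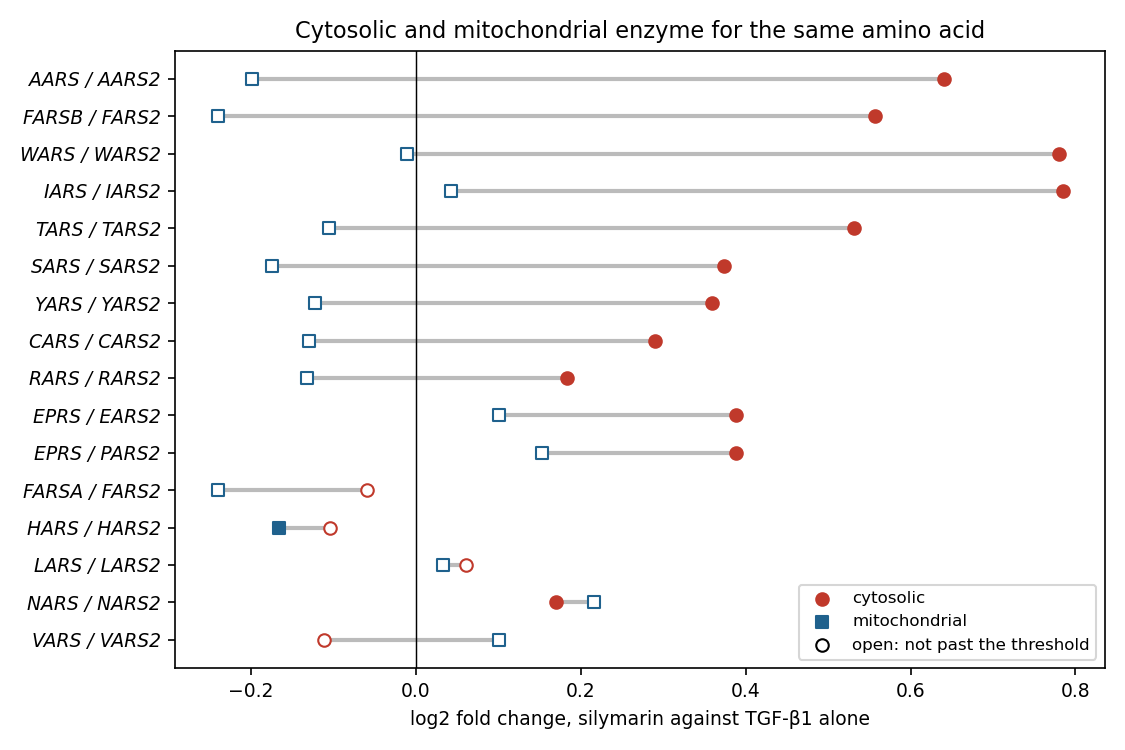
Change of the cytosolic gene and of its mitochondrial partner for 16 pairs that charge the same amino acid (log2 fold change, silymarin plus TGF-β1 against TGF-β1 alone). The cytosolic point lies to the right of the mitochondrial one in 14 pairs, and VARS with VARS2 and NARS with NARS2 are the exceptions.

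ATF4 binds DNA as a dimer with C/EBP proteins, at an element whose core is written TGATGNAA. RefSeq promoters (GRCh38.p14, 250 bases before to 50 after the start of each gene) were matched for 30 of the 36 genes, 16 cytosolic and 14 mitochondrial. No entry was matched for DARS, LARS, VARS, YARS, AARS2 and VARS2. Searched on both strands (TTNCATCA on the other), these letters occurred in 1003 of 27305 RefSeq promoters of the same length (3.67%), in 6 of the 16 cytosolic promoters and in 1 of the 14 mitochondrial ones. The matching windows are shown because they hold the shared letters. Each is 28 bases of the gene's own strand, 5′ to 3′, with the match in capitals.
AARS: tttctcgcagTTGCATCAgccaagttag
CARS: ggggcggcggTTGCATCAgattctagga
IARS: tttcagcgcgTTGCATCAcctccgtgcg
MARS: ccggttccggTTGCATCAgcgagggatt
NARS: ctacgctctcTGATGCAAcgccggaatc
TARS: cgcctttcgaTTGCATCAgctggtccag
YARS2: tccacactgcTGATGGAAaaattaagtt

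These windows are at chr16:70289676-70289703 (minus strand) for AARS, chr11:3057408-3057435 (minus) for CARS and chr9:92293693-92293720 (minus) for IARS. They are at chr12:57488054-57488081 (plus) for MARS, chr18:57621805-57621832 (minus) for NARS, chr5:33440957-33440984 (plus) for TARS and chr12:32756077-32756104 (minus) for YARS2. With the start base counted as 0, the match began at -187 in AARS and -197 in YARS2. In the other 5 it began between -13 and 14, that is, around the start of transcription. All 6 cytosolic matches read TGATGCAA on the same or the opposite strand, and that form, chosen after the matches were seen, occurred in 252 of the 27305 promoters (0.923%). The 6 cytosolic genes with a match all rose, with log2 fold changes of 0.78 (IARS), 0.64 (AARS), 0.53 (TARS), 0.50 (MARS), 0.29 (CARS) and 0.17 (NARS). The other 6 matched promoters of cytosolic genes that rose, WARS and GARS among them, held no match. None of the 4 matched promoters of the cytosolic genes that did not rise held one. YARS2 was at -0.12 (limma adjusted p = 0.0938). A match describes letters in this window and is not evidence of binding.

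Other letters were less shared. The core of the element of NRF1, a regulator of nuclear genes for mitochondrial proteins, was searched as CGCATGCG, which reads the same on both strands. It was in 2.19% of all promoters and in that of MARS2 among the members. The E-box CACGTG, also the same on both strands, was in 7.43% of all promoters and in those of IARS, CARS2, EARS2 and MARS2.

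**Figure D5:**
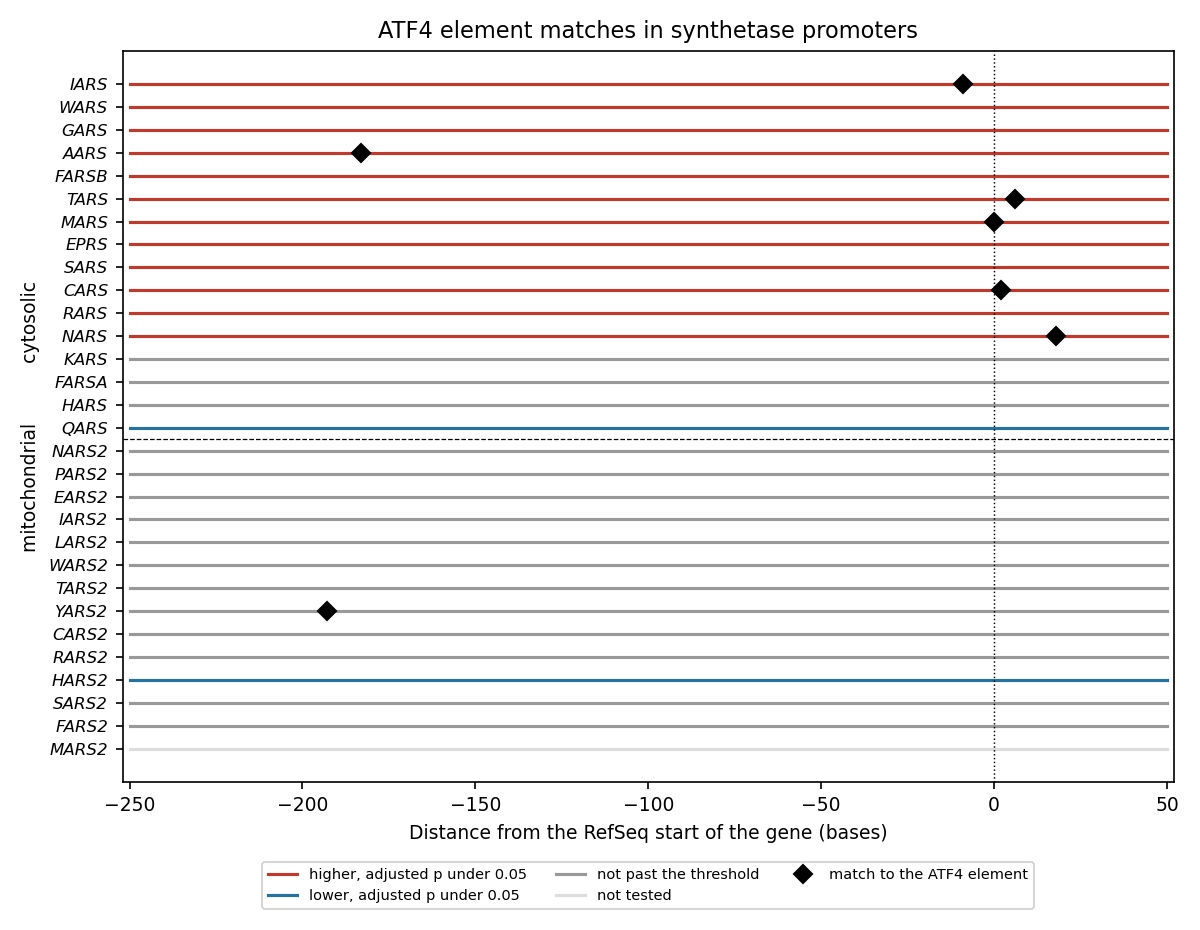
Position of matches to the ATF4 element (diamonds) in the promoters of 30 synthetase genes, from 250 bases before to 50 after the RefSeq start (horizontal axis, bases), with lines coloured by the gene's call. Of the 7 matches, 6 are in cytosolic genes that rose and 1 is in YARS2.

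The genes around the synthetases were read from lists of the same fit. ATF4 itself had 3773, 3834 and 3710 normalized counts without silymarin and 5373, 5113 and 5626 with it, a log2 fold change of 0.51 (SE 0.05, limma adjusted p = 3.73e-06). Of 17 integrated stress response genes, 8 rose, 1 fell and 8 did not pass, with a median of 0.12, so 52.9% were called beside 34.2% of all genes. The largest of them were ASNS, the asparagine synthetase gene, with 155.6, 150.4 and 143.6 counts against 666.3, 672.9 and 718.3 (2.19, limma adjusted p = 4.37e-10), and CHAC1, a glutathione-degrading enzyme, with 22.1, 21.75 and 25.28 against 163, 110.9 and 188.7 (2.66, limma adjusted p = 2.01e-07). ATF3, a stress-induced transcription factor, rose by 1.13 (limma adjusted p = 9.55e-08). Among the 8 that did not pass were DDIT3 (0.12, limma adjusted p = 0.24), ATF5 (-0.06, 0.609) and SESN2 (-0.12, 0.272). PPP1R15A and PPP1R15B each direct dephosphorylation of eIF2α. PPP1R15A fell by 0.16 (limma adjusted p = 0.0355), and PPP1R15B rose by 0.24 (limma adjusted p = 0.0027). EIF2AK4, the gene of the kinase GCN2, was at -0.008 (limma adjusted p = 0.93), and its mRNA level says nothing of its activity.

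Of 9 tested scaffold and elongation factor genes, 3 rose, 0 fell and 6 did not pass (median 0.09), so 33.3% were called, near the 34.2% of all genes. AIMP2, a scaffold of the multisynthetase complex, had 754.9, 687.8 and 733.2 normalized counts without silymarin and 1046, 931.6 and 1051 with it (0.48, limma adjusted p = 1.18e-04), whereas AIMP1 was at -0.02 (limma adjusted p = 0.862). EEF2, the translocation factor of the ribosome, rose by 0.22 (limma adjusted p = 0.0174). EEF1A1, which brings charged transfer RNA to the ribosome, rose by 0.40 (limma adjusted p = 0.0336), with overlapping groups. It has many near-identical pseudogenes, which makes its counts uncertain.

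Of 8 tested genes with other parts in transfer RNA charging, 2 rose, 2 fell and 4 did not pass (median 0.08), so 4 of 8 were called beside 34.2% of all genes. XPOT, which exports transfer RNA from the nucleus, had 1992, 1889 and 1896 normalized counts without silymarin and 2791, 2773 and 2768 with it (0.53, limma adjusted p = 2.32e-06). MTFMT, which formylates the methionyl initiator transfer RNA in mitochondria, had 418.1, 399.6 and 412.6 counts against 516.4, 572.2 and 518.4 (0.38, limma adjusted p = 0.00101). TARSL2, a threonyl-tRNA synthetase-like gene outside the 36, fell by 0.29 (limma adjusted p = 0.00757), opposite in sign to TARS. DTD1, which clears D-amino acids from transfer RNA, fell by 0.24 (limma adjusted p = 0.0351).

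Of 15 tested mitochondrial translation factors, 4 rose, 1 fell and 10 did not pass (median 0.09). LRPPRC, which stabilises mitochondrial mRNA, rose by 0.32 (limma adjusted p = 3.34e-04), GUF1, a mitochondrial elongation factor, by 0.35 (8.70e-04), and MRRF, the ribosome recycling factor, by 0.27 (8.83e-04). Of 17 tested mitochondrial transfer RNA processing and modification genes, 3 rose, 2 fell and 12 did not pass (median 0.07). TRMT10C, a subunit of mitochondrial RNase P, rose by 0.30 (limma adjusted p = 0.00288) and PUS1, a pseudouridine synthase, by 0.29 (0.00577), whereas NSUN3, which modifies the mitochondrial methionyl transfer RNA, fell by 0.33 (0.00417). In both of these lists the share called, 33.3% and 29.4%, was near the 34.2% of all genes.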

How the data were processed

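Poly(A) RNA of 6 HaCaT libraries was sequenced from stranded libraries, per the labels' protocols. Per the submitters' processing notes, the tools included TopHat2 2.1.1, cutadapt 1.15, bcl2fastq 2.18.12, DESeq2, Subread 1.5.2 and featureCounts. Not given in the sources used here are genome build, annotation and strand setting. By its values, the table that the authors deposited holds a signal in normalized read counts, each a whole multiple of 1 step per library (100% of values within 1e-06 reads). In TGF replicate 3 the step was too near 1 to be accepted as reads. Unmapped columns numbered 0.

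The test planned for normalized values replaced that for raw counts. With R 4.3.3, limma 3.58.1 (trended prior) was fitted to log2(value + 1) over all 6 libraries with group as the only term. A gene was tested if 3 or more libraries held 10 or more normalized counts of it, and a Benjamini-Hochberg adjusted p under 0.05 was called. The procedure was also run on simulated counts, with the same spread parameter for every gene and no library set apart by GC content. That run therefore cannot show how the procedure behaves with a library like silymarin replicate 2. P-values measure the spread between 3 replicates per group, described as biological. The size factors would hide a change in total RNA per cell.

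edgeR 4.0.16 on the reads recovered from 5 libraries called 4675 of 17843 genes, and DESeq2 1.42.0 was run on the same reads. Also tried were scaling by library size, upper quartile or TMM, a filter of 5 CPM or none, pseudocounts of 0.1 and 10, a threshold of 0.01, a replicate block, a GC and length correction, and each library left out. Exon lengths and overlaps are those of GENCODE 29.

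The members and lists were chosen with earlier results of these data known. Values in every library were to be given for the 6 largest cytosolic rises and up to 4 falls, up to 4 called mitochondrial genes per direction, the 3 members of highest mean, HARS, HARS2, GARS and KARS. Cytosolic members not past the threshold were to be given by value, and up to 3 called genes of smallest p per pathway list. Other members and genes were named after their values were seen.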

Additional observations from a re-analysis of the deposited data

How the results depend on the processing

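Of the 13 cytosolic rises, 11 kept their call in all 18 settings, and RARS and NARS did not. Cytosolic genes called higher numbered 11 to 14. No member's call reversed. The single cytosolic fall (QARS) became 0 falls with TMM, upper quartile or library-size scaling, no filter, a pseudocount of 0.1, edgeR, DESeq2 or a threshold of 0.01, and 2 with the GC and length correction, and 0 to 1 with 1 library left out. Mitochondrial genes called numbered 2 with upper quartile scaling (1 higher), 5 with the GC and length correction (2 higher, 3 lower), and 0 with no filter, edgeR, DESeq2 or a threshold of 0.01. Library-size scaling gave 1 higher and 0 lower. With 1 library left out the count was 0 to 5 (0 to 2 higher, 0 to 3 lower). The share of all genes called also moved. It was 34.2% with upper quartile scaling, 34.8% with library-size scaling, 43.7% with the GC and length correction and 19.0% with no filter. It was 26.2% with edgeR, 19.6% with DESeq2, 22.3% at a threshold of 0.01, and 25.1% to 42.1% with 1 library left out. The 5 of 15 mitochondrial genes called with the GC and length correction thus stand beside 43.7% of all genes. The mitochondrial median of -0.105 was -0.058 with a filter of 5 CPM, -0.062 with edgeR, -0.064 with DESeq2, -0.077 with the GC and length correction, and -0.108 to -0.031 with 1 library left out. The cytosolic median stayed between 0.294 and 0.350 in those fits. All genes called, 5912, fell to 3489 with DESeq2 and 3861 at a threshold of 0.01, and were 4278 to 7183 with 1 library left out, the highest without silymarin replicate 2. The edgeR and DESeq2 fits also lacked TGF replicate 3, without which limma called 4334 genes with a mitochondrial median of -0.068, so tool and library cannot be told apart there. The filter of 5 CPM left out SARS2 and kept the log2 fold change of every other member, so the mitochondrial median moved there by construction. The threshold of 0.01 is also stricter by construction. The cause of the other changes was not tested.

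Same-numbered libraries did not deviate together (Pearson's r -0.0392, 0.0422 and 0.0229 across genes for numbers 1 to 3). These values cannot show whether the cultures were run in matched sets. With the replicate block, 5678 genes were called, 13 cytosolic genes higher and 0 lower, and 0 mitochondrial genes, with medians of 0.325 and -0.105. The smallest cytosolic rises, RARS and NARS, lost their call in 6 and 5 settings, and SARS2, at 12.98 to 20.33 counts, lay near the filter.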
